A study of Mus musculus with 6 samples.

Results

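The genes described here encode the proteins of the mitochondrial ribosome. They were taken as every gene whose probe sets carry a single annotated symbol beginning with Mrpl or Mrps and a number, which gave 74 of the 12393 genes measured: 47 named for the large subunit (Mrpl) and 27 named for the small subunit (Mrps). Each gene was read by its brightest probe set over all 6 arrays, a choice that does not use the groups. Membership followed the symbol alone, but the family was chosen with earlier results of these data known. Of the family, Mrpl30, Mrpl53, Mrps10 and Mrps27 were not analysed here, the first pair because their probe sets carry several symbols. All 74 members lie on autosomes, spread over 17 chromosomes.

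Transcripts were measured on 6 arrays hybridised with RNA of regulatory T cells (Treg), a CD4 lineage of the mouse that restrains immune responses, sorted as CD4+YFP+ from C57BL/6 mice. The 3 control arrays have B6_WT titles and the genotype Foxp3cre. The 3 others have USP7 titles; the series text gives fl-Usp7/Foxp3cre for the knockout, but the genotype field of these arrays reads fl-HDAC11/Foxp3cre, and they are therefore called USP7-titled. All mice carried Foxp3cre, in which Cre recombinase is made by cells that express Foxp3, and the labels give neither age nor sex nor whether each sample is 1 animal, so every p-value below reflects sample-to-sample spread, which may be technical.

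Mitochondria keep a small genome of their own, which encodes core subunits of the respiratory chain and the ribosomal RNAs that make up the mitochondrial ribosome. Every protein of that ribosome is encoded in the nucleus, made in the cytosol and imported, so building it needs many nuclear genes at matching levels. The small subunit binds messenger RNA and reads the code, and the large subunit forms the peptide bond and feeds the new protein towards the inner membrane. Part of its proteins descend from bacterial ribosomal proteins and part are found in mitochondria only; in Treg, mitochondrial respiration is known to matter for suppressive function.

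Most mitochondrial ribosomal protein genes were higher in the USP7-titled arrays, by small amounts. Of the 74 members 46 rose and 2 fell, and 26 did not pass (limma, Benjamini-Hochberg adjusted p under 0.05 over all genes). That is 62.2% of members higher, against 17.0% of all genes higher and 15.9% lower, or 32.9% changed in either direction. All genes include many dim ones. Without the dimmest 40% of probe sets 26.5% of all genes were higher and 22.9% lower, against 70.3% of members higher. The median change was 0.37 on the log2 scale, a level 29.7% higher, whereas the median over all genes was -0.05. In 54 members the arrays of the groups did not overlap and the USP7-titled arrays were the higher, and in 3 they did not overlap and were the lower; over all genes those shares were 20.9% and 24.7%. No member rose 2-fold: the called rises ran from 0.17 to 0.88 with a median of 0.45, and 10 of them reached 1.5-fold.

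The labels and the cells were checked in the same arrays. Usp7 read 11.68 ± 0.06 in the control group and 10.67 ± 0.11 in the other (SD, n = 3 each), 49.6% of control (limma adjusted p = 1.32e-06), and Hdac11 changed by -0.58 (SE 0.16, limma adjusted p = 0.0154). Foxp3, the defining Treg factor, fell by 5.98 on the log2 scale, to 1.59% of control, so the defining marker of the labelled cell type was nearly lost in the USP7-titled arrays. Of 10 Treg and CD4 T cell markers, Foxp3 included, 0 rose and 7 fell, among them Ctla4 (-0.36), Ikzf2 (-0.21) and Il2ra (-0.17), with a median of -0.15; Cd4, at 0.01, was the only one above 0. The X-inactivation RNA Xist differed by -7.20 and the Y-linked Eif2s3y by 5.65, USP7-titled minus control: the sex of the mice and their group cannot be told apart. A myeloid marker list of 20 genes had 15 higher and 1 lower. Its mean level ran from 6.92 to 7.13 among controls and from 8.25 to 8.45 among the others. Of 11 CD8 T and NK cell markers 4 were higher, 1 was lower and 6 did not pass. The higher ones were Gzmb (3.29), Gzma (3.21), Nkg7 (2.76) and Tyrobp (1.85), and the lower one was Prf1 (-0.45). Cd8a (0.02) and Cd8b1 (-0.23) were among those that did not pass. Of 11 B cell markers 2, Ms4a1 and Cd74, were higher (18.2%) and 1, Cr2, was lower (9.1%), against 17.0% and 15.9% of all genes. Of 29 cell cycle genes 28 rose and 0 fell, with a median change of 2.16 and a mean level of 8.36 to 8.43 among controls and 10.50 to 10.57 among the others. The part of sorted-cell make-up, sex or cell cycle in the results on the mitochondrial ribosome was not tested, and fewer cells of a type cannot be told apart from less RNA per cell.

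**Figure D1:**
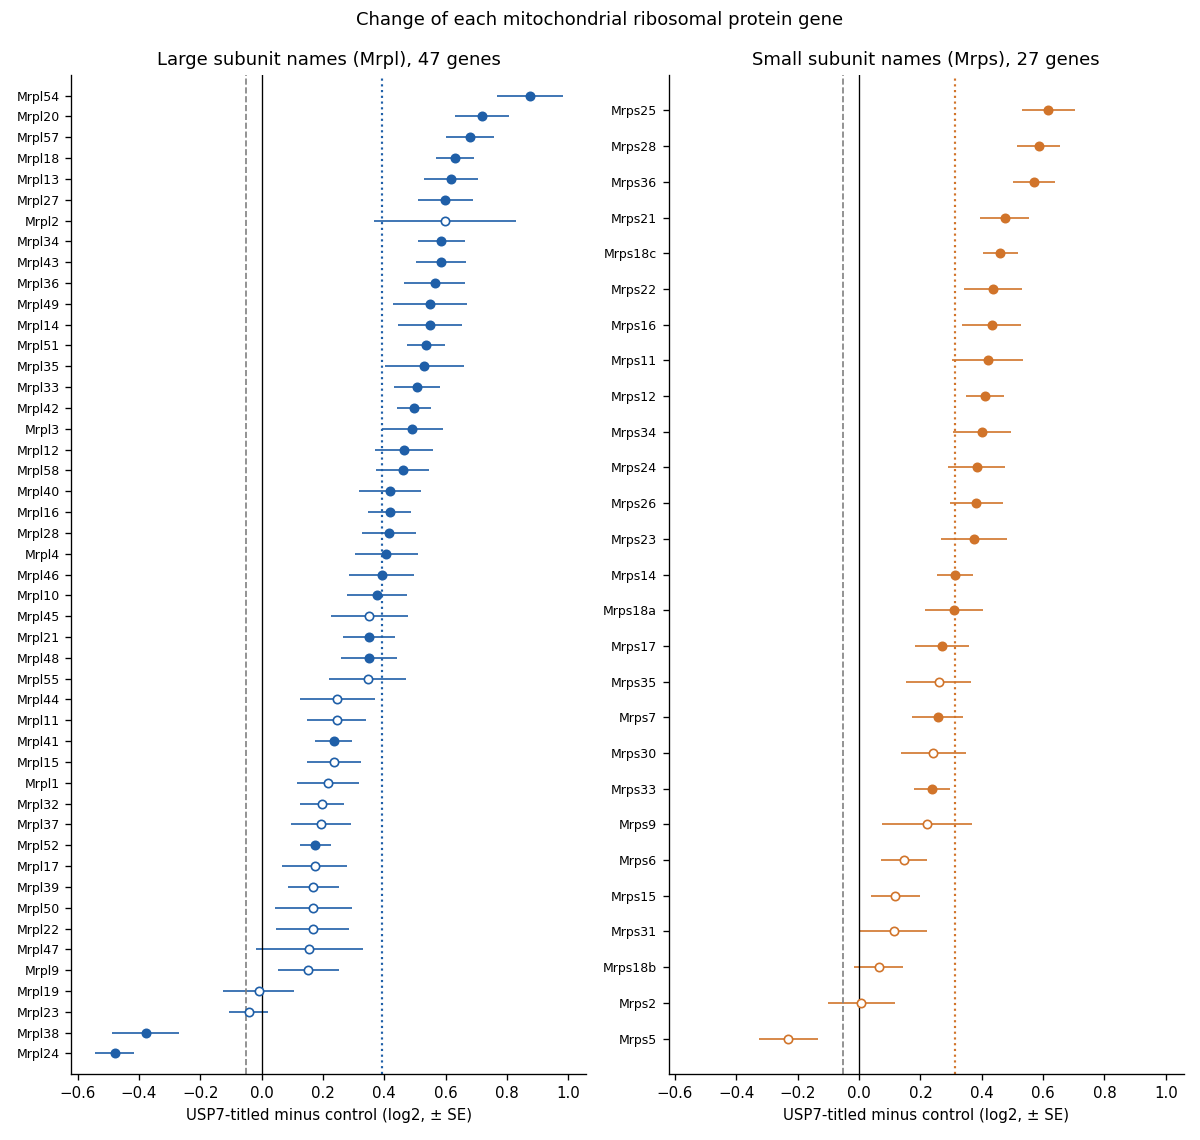
Change of each of the 74 members (log2, USP7-titled minus control) with its standard error, large subunit names on the left and small on the right. Filled points passed the limma test and open points did not; the dashed line is the median of all genes (-0.05) and the dotted lines are the medians of the 47 large (0.39) and 27 small subunit genes (0.31), and nearly every point lies to the right of 0.

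The large subunit was compared with the small one. Of 47 large subunit genes 28 rose (59.6%), 2 fell and 17 were not called; their median change was 0.39. Of 27 small subunit genes 18 rose (66.7%), 0 fell and 9 were not called; their median was 0.31. With 1 array left out in turn the rises numbered 26 to 31 in the large and 13 to 16 in the small subunit. Rises of at least 1.5-fold were found in 8 large and 2 small subunit genes.

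Within each array the subunits moved together. The median over large subunit genes, each value taken relative to its mean over the 6 arrays, was -0.17, -0.28 and -0.16 in the control group and 0.17, 0.22 and 0.20 in the USP7-titled group. For the small subunit it was -0.20, -0.19 and -0.13 in the control group and 0.12, 0.16 and 0.20 in the USP7-titled group. Neither subunit had a USP7-titled array within the range of the controls. The large minus small difference inside an array was 0.02, -0.08 and -0.03 in the control group and 0.06, 0.05 and -0.01 in the USP7-titled group. These last ranges overlap, and the group means of the difference were 0.06 apart, about the spread between arrays of a group (SD 0.05).

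**Figure D2:**
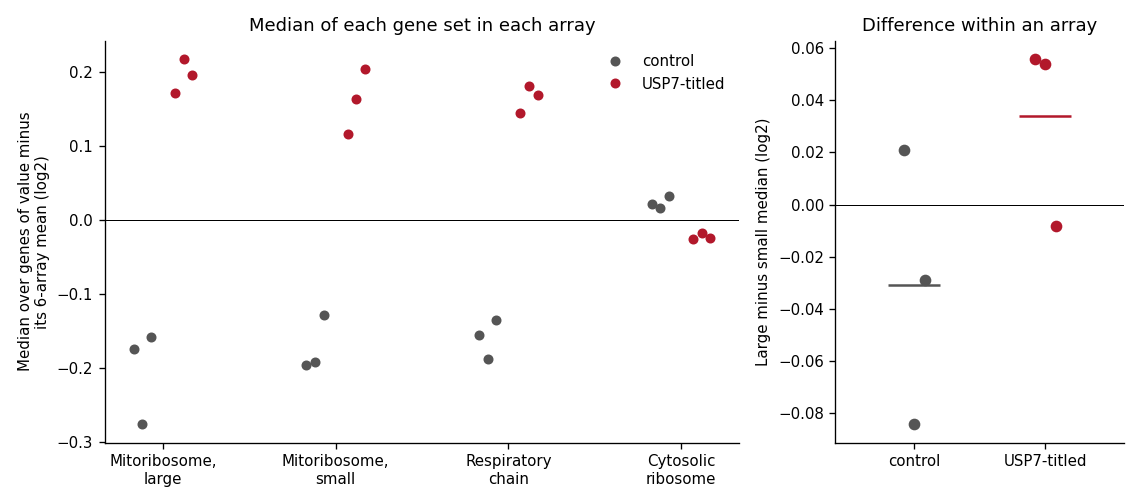
Left, median over the genes of each set, in log2 units relative to each gene's mean over 6 arrays, with 1 point per array (3 control, 3 USP7-titled). Right, large minus small subunit median in each array, with bars at group means; both mitoribosome subunits and the respiratory chain are higher in all 3 USP7-titled arrays, whereas the large minus small values of the groups overlap.

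A gene's name does not always give its place. Mrps30 and Mrps18a encode proteins that lie in the large subunit of solved mitochondrial ribosome structures, and Mrps36 encodes a component of the 2-oxoglutarate dehydrogenase complex of the citric acid cycle rather than a ribosomal protein. Assigned by structure, 29 of 49 large subunit genes rose and 2 fell, and 16 of 24 small subunit genes rose and 0 fell, with medians of 0.38 and 0.34. Mrps36 read 10.50, 10.44 and 10.58 in the control group and 11.07, 11.11 and 11.04 in the USP7-titled group, a rise of 0.57 (SE 0.07, limma adjusted p = 6.82e-05). Mrps30 changed by 0.24 (SE 0.11) and did not pass (limma adjusted p = 0.109), though it did without control replicate 3 (0.34, limma adjusted p = 0.0328).

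Members were also counted by whether they have a bacterial homolog. Among 44 genes with a bacterial homolog 26 rose and 1 fell (median 0.38), and among 29 mitochondria-specific genes 19 rose and 1 fell (median 0.35).

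The largest rises were in the large subunit. Mrpl54, a mitochondria-specific protein, read 8.38, 8.28 and 8.39 in the control group and 9.12, 9.35 and 9.21 in the USP7-titled group, a rise of 0.88 (SE 0.11, limma adjusted p = 9.14e-05) or 1.83-fold. Mrpl20, whose bacterial counterpart binds ribosomal RNA early in assembly, read 10.26, 10.07 and 10.39 against 10.91, 10.94 and 11.03, a rise of 0.72 (SE 0.09, limma adjusted p = 9.53e-05). Mrpl57, a small mitochondria-specific protein also known as Mrp63, read 10.42, 10.29 and 10.19 against 10.99, 11.04 and 10.91, a rise of 0.68 (SE 0.08, limma adjusted p = 6.26e-05). In each of these genes the lowest USP7-titled array stood above the highest control.

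The next rises were of like size. Mrpl18, of the central protuberance at the top of the large subunit, had the smallest limma adjusted p of the members (1.78e-05), with 10.68, 10.58 and 10.66 in the control group and 11.24, 11.27 and 11.30 in the USP7-titled group, a change of 0.63. Mrpl13 read 10.55, 10.28 and 10.52 against 10.97, 11.15 and 11.08. Mrpl43, another mitochondria-specific protein, read 10.45, 10.39 and 10.53 against 10.89, 11.10 and 11.14. The control and USP7-titled arrays were again apart in all 3 genes, by 0.62 for Mrpl13 and 0.59 for Mrpl43. Mrpl27, which reaches towards the site of peptide bond formation in bacteria, rose by 0.60 and Mrpl34 by 0.59. In the small subunit Mrps25 rose by 0.62 by its brightest probe set and Mrps28 by 0.59, from 10.21, 10.22 and 10.20 to 10.86, 10.72 and 10.81.

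**Figure D3:**
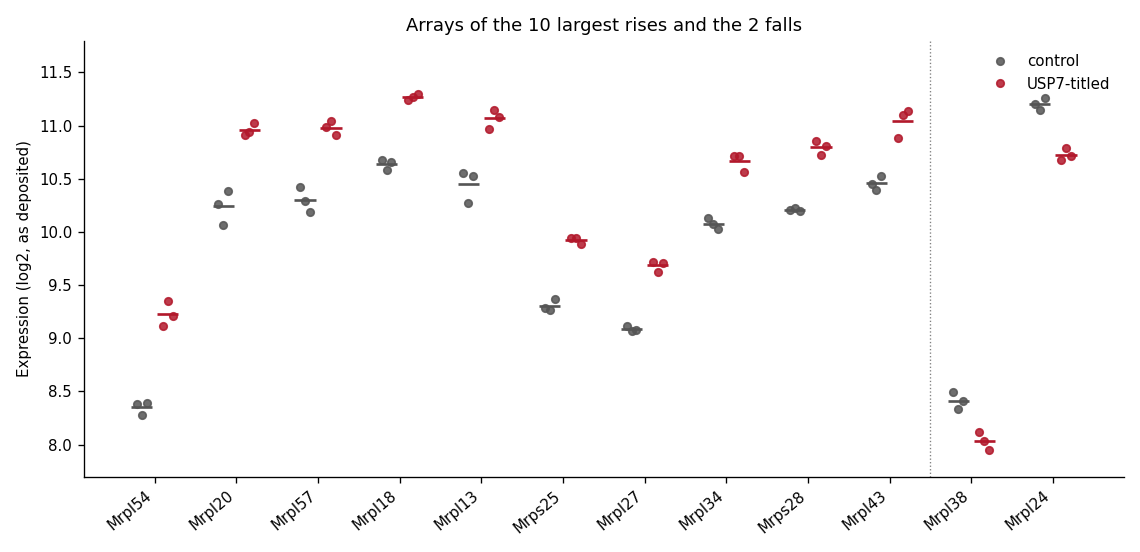
Deposited log2 expression in each array for the 10 members with the largest called rises and, right of the dotted line, the 2 that fell. Points are arrays (3 control, 3 USP7-titled) and bars are group means; in all 12 genes the groups do not overlap.

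Only 2 members fell. Mrpl24 encodes a protein at the end of the tunnel through which the new chain leaves the ribosome. It read 11.21, 11.15 and 11.26 in the control group and 10.68, 10.79 and 10.71 in the USP7-titled group, a change of -0.48 (SE 0.06, limma adjusted p = 0.00018) that left 71.7% of the control level. All 3 of its USP7-titled arrays lay below every control, and it is read by a single probe set. Mrpl38, a mitochondria-specific protein of the central protuberance, read 8.49, 8.34 and 8.41 against 8.12, 8.03 and 7.95, a difference of -0.38 (SE 0.11, limma adjusted p = 0.0211). The other probe set of the gene gave 0.11 and did not pass. The call on Mrpl38 was lost when control replicate 1, control replicate 3 or USP7-titled replicate 3 was left out, with limma adjusted p of 0.0876, 0.054 and 0.0629, and under spike scaling (-0.22, limma adjusted p = 0.187).

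Placed by where their proteins sit, a grouping made after the values were known and so not tested, the regions differed in their counts. Around the catalytic centre of the large subunit 4 of 5 genes rose: Mrpl27, Mrpl3 (0.49), Mrpl16 (0.42) and Mrpl4 (0.41). The fifth, Mrpl2, changed by 0.60, with USP7-titled replicate 3 far above the rest. It read 9.42, 9.57 and 10.52 in USP7-titled arrays against 9.37, 9.10 and 9.24 in controls, and did not pass (SE 0.23, limma adjusted p = 0.0701). It did pass under spike scaling, without the dimmest 40% of probe sets, with the replicate number as a block and without USP7-titled replicate 1. In the central protuberance 5 of 6 genes rose: Mrpl18, Mrpl58 (0.46), Mrpl40 (0.42), Mrpl46 (0.39) and Mrpl48 (0.35). Mrpl58, once named Ict1, can release chains from stalled ribosomes. The sixth was Mrpl38. The call on Mrpl46 was lost without USP7-titled replicate 2 (highest limma adjusted p = 0.0596).

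Genes of the stalk, the flexible arm that recruits translation factors, had 2 of 3 higher. Mrpl12, which forms the stalk and is also known to bind the mitochondrial RNA polymerase, read 10.28, 10.09 and 10.34 in the control group and 10.72, 10.82 and 10.55 in the USP7-titled group, a rise of 0.46 (SE 0.09, limma adjusted p = 0.00297). Mrpl10 of the stalk base rose by 0.38. Mrpl11, its neighbour, changed by 0.24 and did not pass (limma adjusted p = 0.0735). Its control replicate 3, at 11.11, overlapped the USP7-titled arrays. Without that array the change of Mrpl11 was 0.35 (limma adjusted p = 0.00558). It also passed under spike scaling, with array weights and without the dimmest 40% of probe sets. The dimmer probe sets of Mrpl11 gave 0.31 and 0.45, both called higher, and -0.55, called lower.

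The tunnel exit of the large subunit had smaller changes. Of 7 genes that line it or sit beside it 0 rose and 1, Mrpl24, fell, with a median change of 0.17, but the count of 0 depends on the setting. Mrpl45 alone rose after quantile normalization, Mrpl32 and Mrpl45 after alignment of array medians, and Mrpl17, Mrpl32 and Mrpl45 under spike scaling. Spike scaling used 18 spike control probe sets of the array, those named Bio and Cre. They were not shown to follow the amount of sample RNA, so this setting is not read as scaling to it. Without control replicate 2 Mrpl17 rose, and without USP7-titled replicate 1 Mrpl45 did. In all, 9 of 17 alternatives had 1 to 3 rises among these genes and 8 had 0. Mrpl23, which in bacteria docks chaperones and membrane targeting factors, read 11.09, 11.25 and 11.13 in the control group and 11.10, 11.15 and 11.08 in the USP7-titled group, with a change of -0.04 and a 95% interval of -0.18 to 0.10. Mrpl47 gave 0.16 (interval -0.23 to 0.54), Mrpl22 0.17 (-0.10 to 0.43) and Mrpl17 0.17 (-0.06 to 0.41). The arrays of those 4 genes overlapped between groups. Mrpl32 at 0.20 and Mrpl45, which links the ribosome to the inner membrane, at 0.35 came closest to the threshold (limma adjusted p = 0.0577 and 0.052), and their groups did not overlap. Unadjusted intervals such as those of Mrpl22 and Mrpl17 still include rises of the size seen in other members. Mrpl17 itself was 0.33 under spike scaling (limma adjusted p = 0.0452) and fell by 1.09 by its dimmer probe set.

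In the small subunit, the head had 3 of 4 genes higher: Mrps24 (0.38), Mrps14 (0.31) and Mrps7 (0.26). On the platform Mrps18c (0.46) and Mrps11 (0.42) rose, while Mrps6 at 0.15 and Mrps15 at 0.12 did not pass. The other probe set of Mrps15 gave 0.33 and was called higher. By the mean of probe sets Mrps15 rose and 1 platform gene fell, and under spike scaling Mrps6 and Mrps15 both rose. In the body Mrps16 (0.43), Mrps12 (0.41) and Mrps17 (0.27) rose. The calls on Mrps7 and Mrps17 were each lost with 5 of the 6 arrays left out in turn, all but USP7-titled replicate 2 for Mrps7 and all but USP7-titled replicate 1 for Mrps17. Mrps12, the counterpart of the bacterial protein that checks codon and anticodon pairing, read 10.76, 10.69 and 10.79 in the control group and 11.13, 11.18 and 11.15 in the USP7-titled group (limma adjusted p = 0.000387). Mrps5, at the entry of the messenger RNA channel, lay lower in every USP7-titled array, at 9.04, 9.04 and 9.05 against 9.37, 9.24 and 9.21, but its change of -0.23 did not pass (SE 0.10, limma adjusted p = 0.0893).

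The Mrps18 genes form a family of 3 related members, of which Mrps18a and Mrps18b were counted here with the mitochondria-specific genes and Mrps18c with those that have a bacterial homolog. Mrps18c went from 11.15 ± 0.07 to 11.61 ± 0.04 (SD, n = 3 each), a rise of 0.46 (SE 0.06, limma adjusted p = 0.000116). Mrps18a rose by 0.31 (SE 0.09, limma adjusted p = 0.0269), a call kept without USP7-titled replicate 1 and lost without any other array. Mrps18b, at 10.08, 10.07 and 10.20 against 10.14, 10.16 and 10.24, changed by 0.06 (interval -0.11 to 0.24) and did not pass. The differences between the paralogs were not tested. The smallest changes of all members were those of Mrps2 (0.01, interval -0.23 to 0.25) and Mrpl19 (-0.01, interval -0.27 to 0.25).

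The members placed in none of these regions were counted by subunit and descent. Of 14 further large subunit genes with a bacterial homolog 9 rose and 0 fell (median 0.46), among them Mrpl36 (0.56), Mrpl14 (0.55) and Mrpl33 (0.51). Of 12 further mitochondria-specific large subunit genes 8 rose and 0 fell (median 0.37), among them Mrpl51 (0.54) and Mrpl42 (0.50). In the small subunit 6 of 9 further mitochondria-specific genes rose (median 0.37), with Mrps22 at 0.44, and 2 of 3 with a bacterial homolog, Mrps28 and Mrps21 (0.47).

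Of the 26 members that did not pass, 23 had a change above 0, against 42.7% of all genes, called or not. In 10 the groups did not overlap, with Mrps5 lower in the USP7-titled arrays and the rest higher. Over all genes the groups did not overlap in 20.9% (higher) and 24.7% (lower). Their changes ran from -0.23 to 0.60 with a median of 0.17.

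The rise was less uniform when all probe sets of a gene were read. In the 41 members with a single probe set 27 rose and 1 fell, with a median of 0.40. The 33 others had 53 dimmer probe sets, of which 16 rose, 12 fell and 25 did not pass (limma over all gene probe sets, adjusted p under 0.05). In 21 of the 33 genes some dimmer probe set had the opposite sign, and in 6 the brightest rose while a dimmer one fell: Mrps25, Mrpl35, Mrps11, Mrpl21, Mrps14 and Mrpl52. Mrps11 rose by 0.42 (a call lost without control replicate 1 or 2 or USP7-titled replicate 1) by its brightest probe set and fell by 1.32 by the other (SE 0.18). Mrpl52, the smallest called rise (0.17), lost its call without control replicate 1 or 2 or USP7-titled replicate 2 or 3. Mrpl15, which did not pass by its brightest probe set (0.23), had 3 dimmer ones that rose and 1 that fell, and passed without control replicate 2. Mrpl49 rose by 0.55 by its brightest probe set and gave 0.02 by the other, and Mrpl1 gave 0.22, which did not pass, while 1 dimmer probe set fell by 0.66 and another gave -0.067. Of the dimmer probe sets within 1 log2 unit of the brightest, 10 of 20 rose and 1 fell; of those 1 to 3 units below, 5 of 18 rose and 7 fell; of those more than 3 units below, 1 of 15 rose and 4 fell. The shares of all probe sets called by that fit are not given here, so these counts lack their own background. When every gene was read by its dimmest probe set, 13.9% of all genes were higher and 15% lower. Which transcript parts these probe sets read was not analysed here. Among the called rises, 40 of 46 had no probe set called lower and 34 had every probe set above 0, and in 6 genes, Mrpl13, Mrpl34, Mrpl48, Mrpl57, Mrps23 and Mrps24, all of several probe sets were called higher, although Mrps23 lost its call without control replicate 1 or USP7-titled replicate 2.

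**Figure D4:**
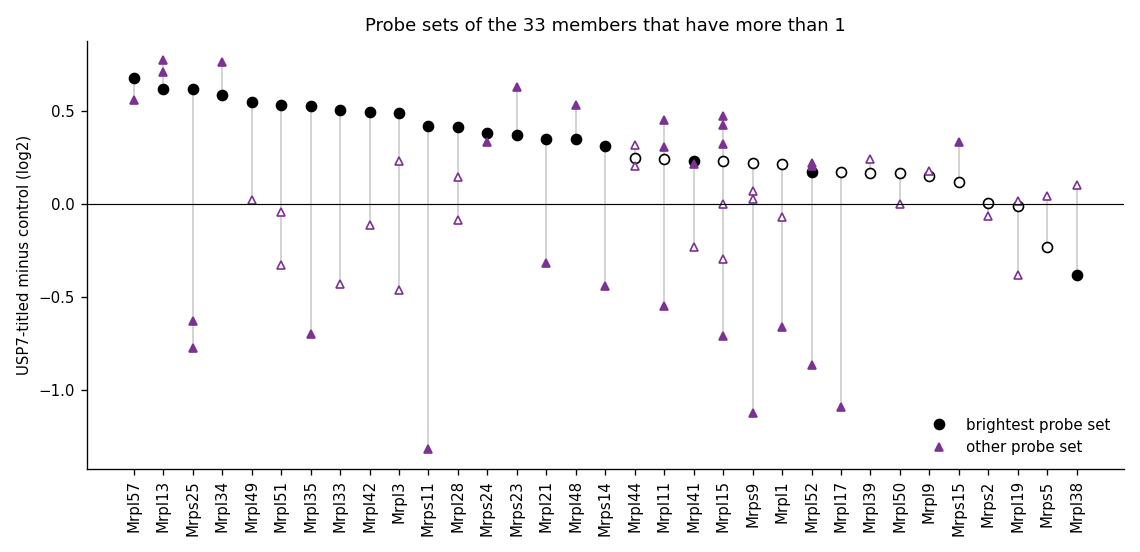
Change by each probe set (USP7-titled minus control, log2) of the 33 members with more than 1, ordered by the brightest. Circles are the brightest probe set, triangles the others, filled where the limma test passed; in 21 genes a triangle lies on the other side of 0 from the circle.

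Promoters were read because the members moved together. RefSeq windows of 300 bases (GRCm38.p6, from 250 before to 50 after a start) were found for 65 of the 74 members, 71 windows in all, and 11 short motifs, chosen after the expression values were known, were searched on both strands. A match is only a run of letters, not evidence of binding. CCGGAAG, the core bound by ETS family factors such as GABPA, a regulator of mitochondrial genes, was in 24 of 71 member windows (33.8%), against 8.86% of all 32851 windows and 1760 of the 12566 windows of tested genes. It was in 21 of 45 windows of members that rose (46.7%) and 3 of 25 of members that did not pass. Over all tested genes those shares were 19.5% of windows of genes that rose and 12.4% of genes that did not pass. This split used the calls on the same members and is given without a test. The longer CCGGAAGT, which contains it, was in 24.4% of windows of members that rose, in 0 of the members that did not pass, in 3.89% of all windows, in 6.3% of the windows of tested genes and in 9.46% of those of tested genes that rose.

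The 6 members below had the largest rises among those with CCGGAAG in the 100 bases before their only annotated start. Each line gives those 100 bases in gene orientation, with the motif in capitals. They lie at chr11:94653691-94653790 (plus strand) for Mrpl27, chr8:71464826-71464925 (plus) for Mrpl34, chr19:45006443-45006542 (minus) for Mrpl43, chr6:125192100-125192199 (plus) for Mrpl51, chr9:105053168-105053267 (plus) for Mrpl3 and chr11:115403652-115403751 (plus) for Mrpl58. Mrpl43 holds 2 copies.
Mrpl27: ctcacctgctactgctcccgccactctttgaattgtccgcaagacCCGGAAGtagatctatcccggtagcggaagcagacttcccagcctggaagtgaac
Mrpl34: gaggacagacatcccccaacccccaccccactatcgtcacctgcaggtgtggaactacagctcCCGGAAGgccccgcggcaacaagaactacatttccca
Mrpl43: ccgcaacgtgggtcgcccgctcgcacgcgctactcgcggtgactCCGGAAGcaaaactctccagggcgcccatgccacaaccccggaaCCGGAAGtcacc
Mrpl51: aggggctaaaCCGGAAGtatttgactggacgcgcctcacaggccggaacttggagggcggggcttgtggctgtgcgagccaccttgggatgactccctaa
Mrpl3: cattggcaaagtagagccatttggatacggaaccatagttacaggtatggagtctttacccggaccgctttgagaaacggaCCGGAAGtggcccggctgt
Mrpl58: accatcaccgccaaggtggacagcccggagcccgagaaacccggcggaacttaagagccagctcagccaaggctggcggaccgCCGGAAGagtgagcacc

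The letters of NRF1, nuclear respiratory factor 1, were distributed otherwise. GCATGCGC was in 8 of 71 member windows (11.3%), against 2.71% of all windows and 4.29% of the windows of tested genes. It was in 2 of 45 windows of members that rose, those of Mrpl33 and Mrpl10, and in 6 of 25 of members that did not pass. Those 6 were Mrpl9, Mrpl17, Mrpl22, Mrpl32, Mrpl39 and Mrps18b, of which Mrpl17, Mrpl22 and Mrpl32 belong to the tunnel exit. Their changes were all above 0, from 0.06 to 0.20, and some of them passed in other settings. This split too used the calls on the same members, rests on few windows and is given without a test. Over all tested genes the shares ran the other way, 5.96% of windows of genes that rose and 3.6% of genes that did not pass.

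All members with this motif in the 100 bases before their only annotated start are printed, with GCATGCGC or its reverse complement in capitals; where copies overlap the capitals run on. They lie at chr7:105811088-105811187 (minus strand) for Mrpl17, chr11:58171564-58171663 (plus) for Mrpl22, chr13:14613038-14613137 (minus) for Mrpl32, chr3:94443236-94443335 (plus) for Mrpl9 and chr5:31613851-31613950 (plus) for Mrpl33. Mrpl24 (chr3:87919444-87919543, plus), which fell, is printed last and has neither this motif nor CCGGAAG in these bases.
Mrpl17: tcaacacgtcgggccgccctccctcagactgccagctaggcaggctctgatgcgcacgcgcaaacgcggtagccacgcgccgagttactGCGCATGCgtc
Mrpl22: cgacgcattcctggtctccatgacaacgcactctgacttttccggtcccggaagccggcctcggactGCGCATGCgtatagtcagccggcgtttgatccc
Mrpl32: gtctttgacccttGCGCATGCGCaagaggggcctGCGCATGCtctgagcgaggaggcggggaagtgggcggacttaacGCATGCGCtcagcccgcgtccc
Mrpl9: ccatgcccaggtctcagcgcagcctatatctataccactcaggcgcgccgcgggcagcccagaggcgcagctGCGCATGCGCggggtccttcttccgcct
Mrpl33: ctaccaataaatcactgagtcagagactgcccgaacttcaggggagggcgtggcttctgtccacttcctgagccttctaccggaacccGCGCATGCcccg
Mrpl24: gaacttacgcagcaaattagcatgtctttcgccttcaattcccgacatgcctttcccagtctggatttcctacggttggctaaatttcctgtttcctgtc

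Of the other motifs, AAGATGGC, the core of YY1 sites, was in 15.5% of member windows and 2.75% of all windows, and in 20.0% of windows of members that rose, against 3.6% of the windows of tested genes and 4.3% of those of tested genes that rose. The GC box GGGCGG was in 54.9% of member windows, against 55.4% of the windows of tested genes. CCAAT (39.4%) and the E-box CACGTG read by MYC (9.86%) also lay near their shares among tested genes, 37.1% and 9.11%. TATAAA was in 7.04% and the E2F letters TTTGGCGC in 1.41% of member windows, against 9.81% and 0.82%. TTTGAA was in 16.9% and TGACGTCA in 2.82%, against 12.9% and 2.51%.

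Factors for only some of these motifs were tested as transcripts. In a list of 10 measured regulators of mitochondrial genes 0 rose and 2 fell (20%), against 17.0% of all genes higher and 15.9% lower. Myc fell by 0.77 (SE 0.05, limma adjusted p = 1.22e-06) and Pprc1, a coactivator of the PGC-1 family, by 0.50 (SE 0.08, limma adjusted p = 0.000619). Nrf1 changed by -0.01, Gabpa by -0.002 and Yy1 by 0.02, and none of them passed.

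Subunits of the same ribosome that lack an Mrp symbol were mixed. Gadd45gip1 rose by 0.42 and Dap3, a GTP-binding protein of the small subunit, by 0.25. Ptcd3, an RNA-binding protein of the small subunit, fell from 10.52 to 9.97, by 0.55 (SE 0.08, limma adjusted p = 0.000343), and Chchd1 changed by 0.22 and did not pass. The call on Dap3 was lost without control replicate 1 or 2 and without USP7-titled replicate 2 or 3.

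Genes that assemble or serve the mitochondrial ribosome did not rise with its proteins. Of 17 measured genes for assembly and ribosomal RNA modification 1 rose and 8 fell, with a median of -0.29. The pseudouridine synthase gene Trub2 fell by 0.57, the ribosomal RNA methyltransferase gene Mrm1 by 0.56 and Mettl17 by 0.55, whereas Tfb1m, which methylates the small subunit RNA, rose by 0.47. Under spike scaling 2 of these genes fell and 1 rose, so the count of falls depends on the scaling. Of 8 translation factors 1 rose, the elongation factor Gfm1 (0.55), and 1 fell, the initiation factor Mtif2 (-0.54). The calls on Trub2 and Mtif2 were lost without control replicate 1, with limma adjusted p of 0.0612 and 0.0503. Of 11 mitochondrial tRNA synthetases and amidotransferase subunits 0 rose and 2 fell, Tars2 (-0.60) and Ears2 (-0.58). Of 15 genes for mitochondrial DNA and its transcription 2 rose and 3 fell, among them the polymerase subunit gene Polg2 (-0.85), Ptcd1 (0.51) and Fastk (-0.45). Over all genes 17.0% rose and 15.9% fell. The translation factors (12.5% each way), the mitochondrial DNA genes (13.3% higher, 20% lower) and the falls among synthetases (18.2%) lay near those shares. Falls in the assembly list (47.1%) were more frequent. Among the rises and falls named here the highest limma adjusted p was that of Dap3, 0.0211.

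Among 23 mitochondrial protein import genes 12 rose and 0 fell (median 0.18). The inner membrane chaperone gene Timm8b rose by 0.84, and Timm17b and Timm50 of the main inner membrane translocase by 0.56 and 0.54. The respiratory chain list was drawn by symbol, with succinate dehydrogenase, ATP synthase and cytochrome c genes among those sought. It held 80 genes, of which 67 rose (83.8%) and 2 fell (median 0.32). Ndufb2 and Ndufb1 of complex I rose by 1.12 and 0.94. Cox6b2, known as the testis form of its subunit, rose by 2.61.

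Cytosolic ribosomal protein genes were unlike them in count. Of 45 measured, 4 rose and 16 fell, with a median of -0.07, next to -0.05 for all genes. The largest changes were in Rpl39l (1.42), Rpl12 (-1.18) and Rps27l (1.14). Under spike scaling 14 rose and 2 fell, so their balance depends on the scaling, whereas mitochondrial ribosomal protein genes had 45 to 61 rises and 1 or 2 falls under quantile normalization, alignment of array medians and spike scaling. In those settings 16.1%, 17.6% and 23.9% of all genes were higher.

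**Figure D5:**
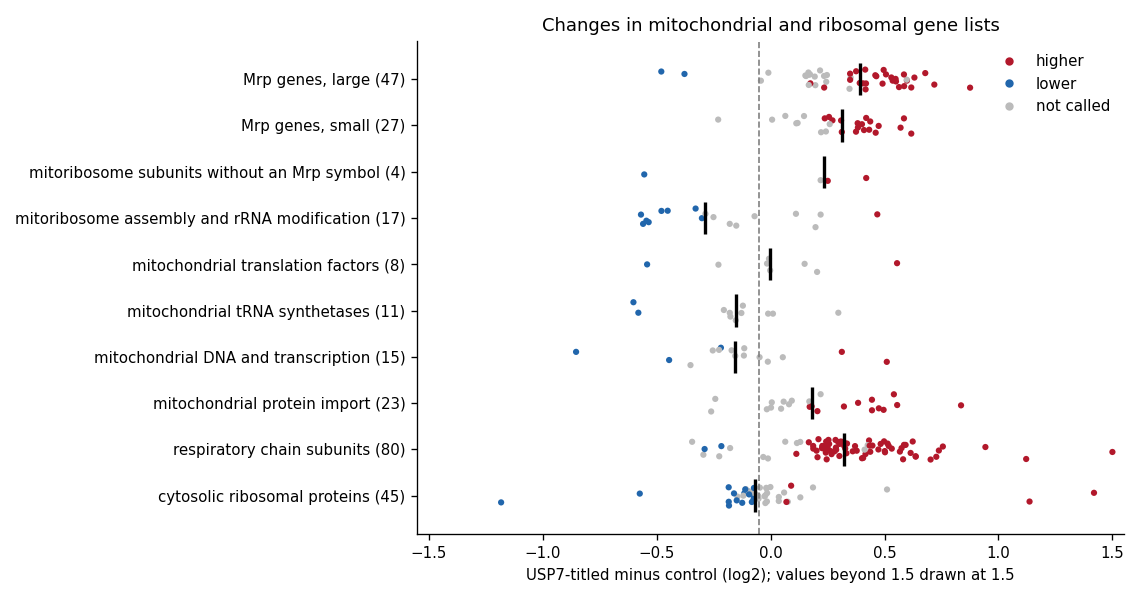
Change of each gene (USP7-titled minus control, log2) in the lists named, with the number of genes in brackets, coloured by the limma call; black bars are list medians and the dashed line is the median of all genes (-0.05). Mrp genes, protein import and respiratory chain lie mostly to the right, and assembly genes (median -0.29) mostly to the left; 1 value, Cox6b2 at 2.61, is drawn at 1.5.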

How the data were processed

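Expression was measured on 6 arrays, 3 control and 3 USP7-titled, from 100 ng of RNA each, per the labels. The authors deposited log2 values per probe set, with summarisation and normalization not given in the sources used here and no background or detection call, so the number of arrays limits the precision. Besides 64 array controls, which were not tested, 20380 of the 22690 probe sets had a single symbol in the platform annotation. No further normalization was applied. The test was limma (version 3.58.1, under R 4.3.3, with lmFit and eBayes with trend), two-sided, 95% intervals unadjusted, Benjamini-Hochberg over 12393 genes, threshold 0.05. The fit was tried on simulated data with 200 of 12393 genes changed. It recovered 4% of changes of 0.25 on the log2 scale, 28% of 0.5, 86% of 1 and 96% of 2, with 6 false calls. Far fewer genes were changed there than the 32.9% called in the arrays, and the adjusted cut-off depends on that share. These figures therefore do not give the recovery in the arrays. The members spread less than all genes (median residual SD 0.098 against 0.136). With 3 arrays per group, a gene that did not pass is not shown to be unchanged. Named members were the 10 largest rises, all falls, the 2 smallest changes, those whose probe sets differ, Mrps18a, Mrps18b, Mrps18c, Mrps30 and Mrps36; other members named were chosen after their values were seen, as were the role groups and motifs. From other lists up to 3 called genes were named by size, and others after their values were seen. Members and lists were chosen with earlier results of these data known. Of 11 B cell markers 2 were higher and 1 was lower, and of 11 CD8 T and NK markers 4 and 1, against 17.0% of all genes higher and 15.9% lower. Alternatives covered scaling, filter, probe set, test, replicate block and each array. The replicate numbers did not pair samples (correlations of deviations -0.06 to 0.09).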

Additional observations from a re-analysis of the deposited data

How the results depend on the processing

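The count of mitochondrial ribosomal protein genes that rose was 46 and stayed between 34 and 61 in all settings tried. The share of all genes called higher, 17.0%, moved as well. It was 23.9% under spike scaling (61 members), 13.9% with the dimmest probe set (34) and 12% at an adjusted p of 0.01 (35). With 1 array left out it was 13.7% to 16.9%. Quantile normalization gave a median change of 0.33. Spike scaling gave 0.53, with 1 member lower (1 large subunit gene) and 8 genes of other mitochondrial lists lower in place of 19; the median of all genes moved there from -0.05 to 0.11. The mean of a gene's probe sets gave 38 rises and 3 falls, with 34 of the 46 rises still called. In that setting 22 large and 16 small subunit genes rose, and 2 tunnel exit genes and 1 small subunit gene fell. Of all genes 16.8% were higher and 17.8% lower. The median was 0.26 and the large minus small difference -0.029 in place of 0.06, with Hdac11 at -0.40. Mrps25 (-0.26), Mrpl35 (-0.084), Mrps11 (-0.45), Mrps14 (-0.063), Mrpl52 (-0.066) and Mrpl17 (-0.46) then turned negative, as did Mrps9 (-0.20), Mrpl1 (-0.17) and Mrps2 (-0.027), which did not pass in either setting. The dimmest probe set gave 34 rises and 10 falls, with 18 large subunit genes higher, 6 large and 4 small lower, a median of 0.25, a large minus small difference of -0.10 and Hdac11 at -0.22. It turned Mrps25 (-0.77), Mrpl51 (-0.040), Mrpl35 (-0.70), Mrpl33 (-0.43), Mrpl42 (-0.11), Mrpl3 (-0.46), Mrps11 (-1.32), Mrpl28 (-0.086), Mrpl21 (-0.31), Mrps14 (-0.44), Mrpl11 (-0.55), Mrpl41 (-0.23), Mrps9 (-1.12), Mrpl52 (-0.86), Mrpl17 (-1.09) and Ptcd1 (-0.40) negative and Mrpl38 positive (0.11); Mrpl15 (-0.30), Mrpl1 (-0.067), Mrps2 (-0.061) and Mrps5 (0.044) changed sign without passing in either setting. The cause was not tested. At an adjusted p of 0.01, 35 members rose and 1, a large subunit gene, fell; 12 genes of the other lists were lower, and Hdac11 (-0.58) did not pass. With 1 array left out, 40 to 47 members rose (26 to 31 large and 13 to 16 small subunit genes) and 1 or 2 fell, the lower large subunit genes were 1 or 2, the median was 0.34 to 0.39, and the large minus small difference 0.03 to 0.07. Hdac11 was then -0.691 to -0.441 and lost its call without control replicate 1 or USP7-titled replicate 2. With the replicate number as a block, 45 members rose and 2 fell, the pairing not being borne out by the arrays. Leaving out genes on X and Y, chosen after the data were seen, left 46 and 2.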
